A study of Mus musculus with 8 samples.

Results

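The genes described here encode the AP-1 transcription factor subunits Fos, Fosb, Fosl1, Fosl2, Jun, Junb, Jund and Atf3 and the zinc finger factors Egr1 and Egr2. All probe sets of the array that the platform annotation pairs with 1 of these 10 symbols were taken, which gave 15 probe sets of the 45037 that are not array controls. A probe set is a group of short probes that together measure a transcript. Fosl1, Fosl2, Jun, Jund and Egr2 had 2 probe sets each and the other 5 genes had 1. The cells were LB-22, an immortalized line from embryonic mouse kidney, so that all arrays come from a single line. In both groups the cells had been expanded at 33 °C in a medium with serum, basic FGF, insulin and 10 U/ml interferon gamma, and were moved to 37 °C without interferon when transfected. Control cells received 25 pmol of a scrambled siRNA and the other cells 25 pmol of an siRNA against Wt1, for 6 h, and RNA was taken after 48 h. Each group had 4 arrays. Whether those 4 were separate cultures is not in the labels, and p-values therefore describe how far these arrays scatter, possibly for technical reasons alone.

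AP-1 is a dimer of basic leucine zipper proteins. Fos proteins pair mainly with Jun proteins and not among themselves, whereas Jun proteins also pair among themselves and with Atf3, and the dimers bind the TRE (TGANTCA) or the related CRE. Many of these genes are immediate early genes: serum, growth factors or stress switch them on within minutes through MAP kinases and factors already present in the cell, and their short-lived mRNAs then fall back. Fosl1 and Junb are also known for sustained expression under ERK signalling, and Jund for being steadily expressed. Egr1 and Egr2 bind a GC-rich element that zinc fingers of the WT1 protein also recognise, which makes the family of interest where Wt1 is lowered.

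Wt1 itself retained 20.5% of its control signal, at 7787 ± 607 on control arrays and 1610 ± 251 on Wt1 siRNA arrays (SD, n = 4 each; limma adjusted p = 9.17e-07). A signal is the authors' linear MAS5 value. Control probe sets for Bacillus subtilis transcripts reached 227.2 at most, which is taken as the background. Wt1, Osr1, Six2 and Tcf21, known from kidney mesenchyme, were above it on all 8 arrays, while Cited1 and Foxd1 were at or below it on all 8. Six2 and Tcf21 came close to it, at 246.3 and 230.7 on control siRNA array 3. The muscle marker Myod1 was at a like level on control arrays, at 296.2 to 375.8, and at 55.4 to 309.5 on Wt1 siRNA arrays. The neuronal marker Tubb3 was above background on all 8 arrays (means of 1051 and 1212), and Snap25 was at or below it on all 8. The general leukocyte markers Ptprc and Itgam and the endothelial markers Pecam1 and Tek were at or below background on every array. The summed signal of the 4 leukocyte markers was 2294 to 3074 on control arrays and 2977 to 3246 on Wt1 siRNA arrays, but its carriers moved oppositely, with Cd68 1.98-fold higher and Csf1r at 59.2% of control (limma adjusted p = 5.2e-05 and 0.00402). Summed podocyte markers (2767 to 5862 on control, 1306 to 1837 on Wt1 siRNA arrays) and endothelial markers, carried by Kdr (2072 to 2890 and 1697 to 2043), were lower without overlap. The epithelial sum was also lower (13980 to 16533 and 12565 to 13044), through Epcam at 23.3% and Krt18 at 87.4% of control, while Cdh1 was 1.94-fold and Krt8 1.46-fold higher, all 4 passing limma's test. The part of these markers in the results was not tested. In RNA from whole cultures, fewer expressing cells and less RNA per cell cannot be told apart. Control siRNA array 3 and Wt1 siRNA array 4 fitted the group means least, with limma array weights of 0.364 and 0.402 against 0.910 to 2.00 for the other 6. For several of the AP-1 and Egr genes the difference is also given without either or both of them. Other genes are given with all 8 arrays unless stated.

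Among the 10 genes, Fosl1 and Junb were more than 2-fold higher after Wt1 siRNA, while no change passed the test for Fos, Fosb, Fosl2, Atf3 or Egr1. One of the Jun probe sets was lower, Jund was higher on 3 of 4 arrays without passing the test, and Egr2 was not above background. Of the 15 probe sets, 13 were among the 22518 tested (the brighter 0.5 share by mean log2 signal). Of these 13, 3 were higher, 1 was lower and 9 did not pass limma's test at an adjusted p under 0.05. The share of 30.8% lies near the background, since 23.1% of all tested probe sets passed, 10.8% higher and 12.3% lower. Groups did not overlap for the same count of 4 of the 13, against 27% of all tested probe sets. The median log2 difference was 0.02 over the 13 and -0.01 over all tested probe sets. After subtracting from each array the median of its log2 signals (median centring below), the median over all tested probe sets moved from -0.01 to 0.10, and 2459 were higher and 1369 lower against 2430 and 2764 as deposited. With median centring 4 of the 13 passed and all 4 were higher, Jund being added and the dimmer Jun probe set lost.

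**Figure D1:**
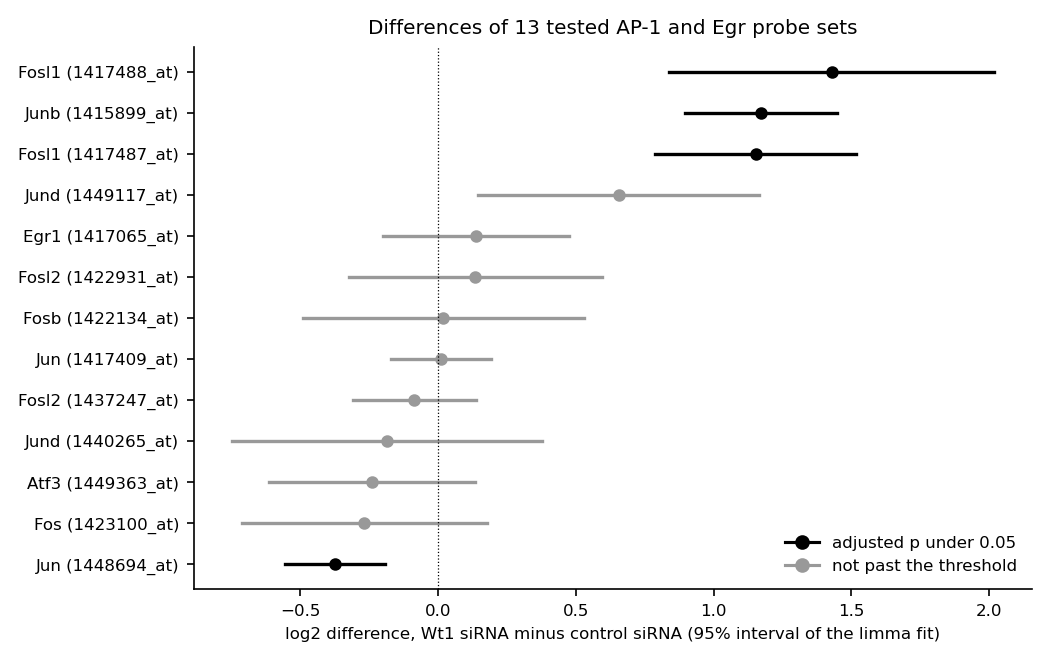
Log2 difference between the group means (Wt1 siRNA minus control siRNA, 4 arrays each) for the 13 tested AP-1 and Egr probe sets, with the 95% interval of the limma fit as a line. Black points passed an adjusted p under 0.05: both Fosl1 probe sets and Junb lie above 1, and the dimmer Jun probe set at -0.37.

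Fosl1 encodes Fra-1, a Fos protein without the strong activation domain of Fos itself. Its brighter probe set (1417487_at) read 3318.4, 3038.6, 2209.6 and 3420.3 in the 4 control samples and 7290.9, 7112.5, 7550.8 and 4740.3 in the 4 Wt1 siRNA samples, in replicate order here and below. Every Wt1 siRNA array lay above every control array, and Wt1 siRNA array 4 was the lowest of its group. The rise was 2.22-fold or 1.15 ± 0.17 log2 units (± SE), with a limma adjusted p of 0.000554. The log2 difference of this probe set was 1.31 without Wt1 siRNA array 4 and 1.01 without control siRNA array 3. The second probe set (1417488_at) read 660.1, 510.0, 259.4 and 690.4 on control arrays and 1214.0, 1565.5, 1297.3 and 1281.4 on Wt1 siRNA arrays. Again the groups did not overlap, with control siRNA array 3 the lowest. This rise was 2.69-fold (log2 1.43 ± 0.27, SE; limma adjusted p = 0.00291), and the log2 difference was 1.12 without control siRNA array 3. Both probe sets gave an exact two-sided permutation p of 0.0286, the smallest that 4 against 4 arrays allow, and both passed under every alternative in which they were tested.

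The other Fos genes did not pass. Fosl2, which encodes Fra-2, read 5625.7, 5788.9, 7376.3 and 6137.0 on control arrays and 5953.3, 6139.8, 6281.9 and 5051.7 on Wt1 siRNA arrays with its brighter probe set (1437247_at). The groups overlapped, and the log2 difference of -0.09 had a 95% interval of -0.31 to 0.14. Its dimmer probe set (1422931_at) lay between 790.6 and 1036.7 on control arrays and between 830.7 and 939.4 on Wt1 siRNA arrays 1 to 3, with 1631.5 on array 4. The difference there was 0.13 with array 4 and -0.09 without it, and neither passed. Over the 8 arrays the 2 Fosl2 probe sets ran against each other (Pearson r = -0.78, a description over arrays that share groups).

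Fos, the founding member of the family, read 1698.2, 2495.4, 2389.3 and 1507.3 on control arrays and 2094.6, 1257.5, 1387.9 and 1990.8 on Wt1 siRNA arrays. Within each group 2 arrays were high and 2 low, and the groups overlapped. The log2 difference was -0.27 with a 95% interval of -0.71 to 0.18 (limma adjusted p = 0.380), so a fall to 61.0% of control or a rise to 113.2% would both be within it. Fos was at -0.18 without control siRNA array 3 and at -0.36 without Wt1 siRNA array 4, and neither passed. Fosb, a close relative of Fos, stood just above background, at 242.0 to 380.3 on control arrays and 279.3 to 328.1 on Wt1 siRNA arrays. Its difference was 0.02 with an interval of -0.49 to 0.53, and its sign changed with the arrays included.

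**Figure D2:**
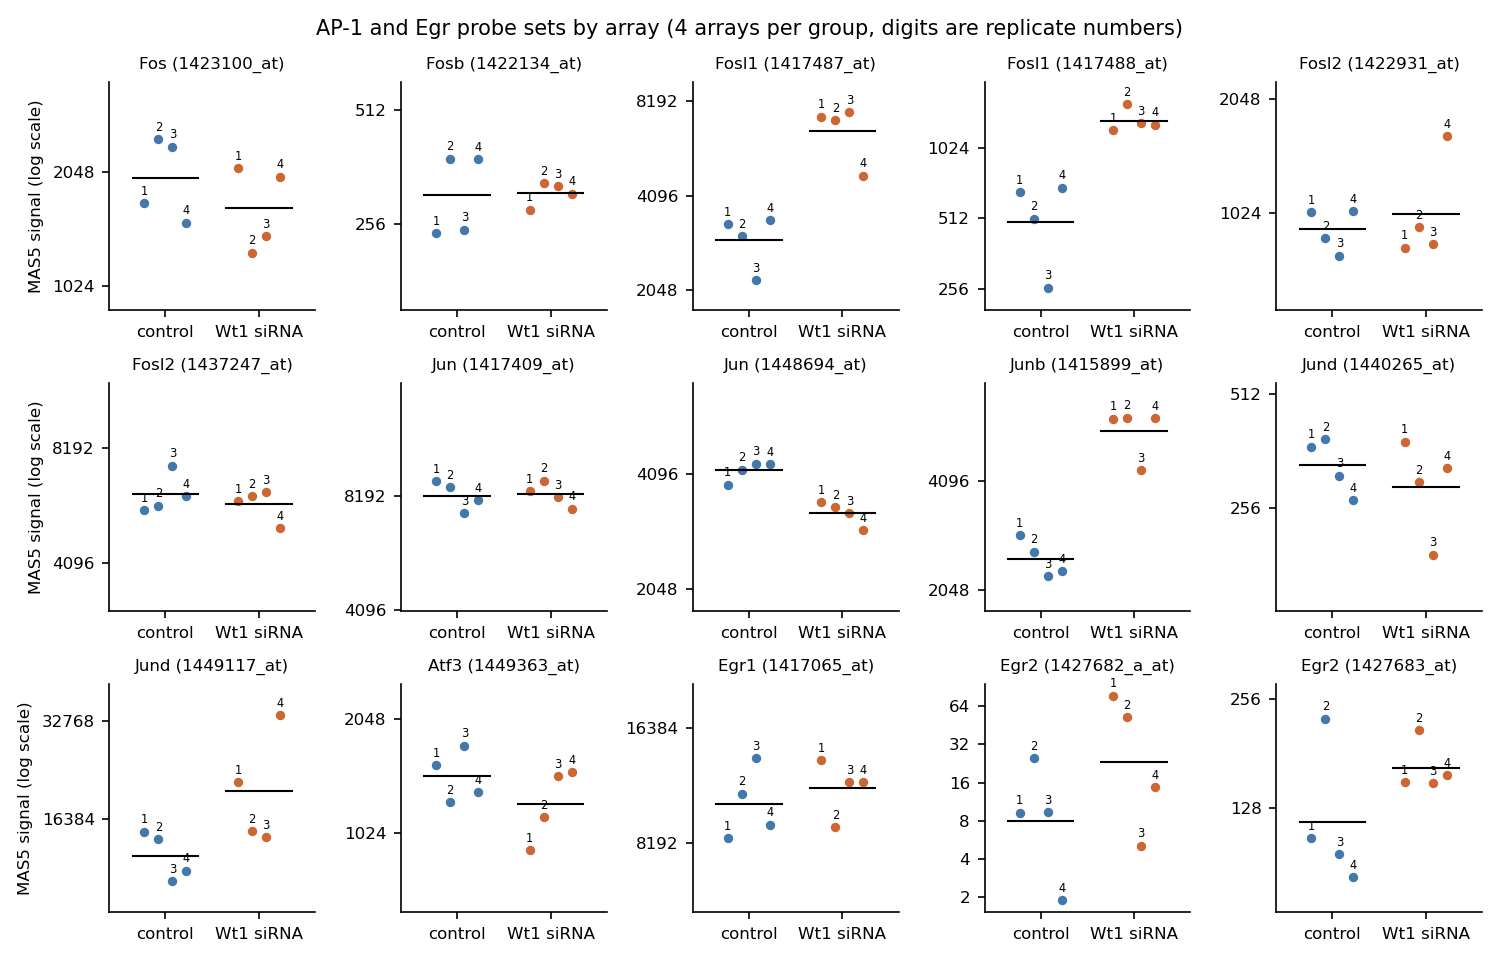
MAS5 signal of each AP-1 and Egr probe set on the 4 control siRNA and 4 Wt1 siRNA arrays, on a log axis whose range differs between panels. Points are arrays numbered by replicate and lines are geometric means: the groups are apart in both Fosl1 panels, in Junb and in Jun 1448694_at, and Wt1 siRNA array 4 stands highest in Jund 1449117_at.

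Junb had the smallest adjusted p of the 10 genes. Its protein is a Jun family member that activates weakly and can oppose Jun in dimers. Its single probe set read 2910.5, 2612.4, 2233.5 and 2308.9 on control arrays and 6105.9, 6150.6, 4392.5 and 6125.9 on Wt1 siRNA arrays. Wt1 siRNA arrays 1, 2 and 4 were nearly equal and array 3 was lower, yet all 4 exceeded the highest control array. Means were 2516 ± 310 for control and 5694 ± 868 for Wt1 siRNA (SD over 4 arrays). Junb rose 2.25-fold, or 1.17 ± 0.13 log2 units (± SE; limma, adjusted p = 7.13e-05), with a 95% interval of 1.86-fold to 2.73-fold. The difference was 1.29 without Wt1 siRNA array 3 and 1.12 without control siRNA array 3.

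Jun encodes the main activating Jun protein. Its 2 probe sets differed in their readings. The brighter one (1417409_at) read 8923.9, 8611.5, 7357.8 and 7957.4 on control arrays and 8413.1, 8971.4, 8118.7 and 7576.0 on Wt1 siRNA arrays. The groups overlapped, and the log2 difference of 0.01 had a 95% interval of -0.17 to 0.19, which is 88.9% to 114.3% of control. The dimmer one (1448694_at) read 3844.1, 4207.1, 4364.7 and 4349.1 on control arrays and 3451.1, 3358.1, 3234.4 and 2912.9 on Wt1 siRNA arrays. Here every Wt1 siRNA array lay below every control array, and the signal fell to 77.2% of control (log2 -0.37 ± 0.08, SE; limma adjusted p = 0.00746). With median centring the difference of this probe set was -0.26 and no longer passed (adjusted p = 0.233).

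Jund encodes the Jun protein found in resting cells. Its brighter probe set (1449117_at) read 14965.4, 14218.7, 10571.3 and 11369.8 on control arrays and 21245.5, 15028.7, 14435.1 and 34194.2 on Wt1 siRNA arrays. Wt1 siRNA arrays 1, 2 and 4 exceeded all controls, array 3 did not, and array 4 was far above the rest. Between groups it was 0.66 ± 0.23 log2 units (± SE; limma, adjusted p = 0.0632), with an exact two-sided permutation p of 0.0571. The adjusted p was under 0.05 in 7 of 21 alternatives, among them with median centring (0.0109), with 1 probe set tested per gene (0.0300) and without Wt1 siRNA array 2 (0.0461) or 3 (0.0355), over a range of 0.0109 to 0.146. Without Wt1 siRNA array 4 the difference was 0.40 (adjusted p = 0.0895), and without both arrays of low weight 0.31 (adjusted p = 0.122). On array 4 the Jund signal was 1.04 log2 units above the mean of Wt1 siRNA arrays 1 to 3. Among 609 other tested probe sets within 0.25 log2 units of the mean level of Jund, the median of that quantity was -0.01, and the 5th and 95th percentiles were -0.36 and 0.32. Of these 609, 100% lay below Jund in that quantity, and array 4 was the highest of the 8 arrays for 24.3%. At the bright end array 4 was stretched, being the highest of the 8 arrays for 79.6% of the 451 brightest probe sets, and its Jund signal exceeded its own 99th percentile of 32458. The part of this stretch in the Jund value was not tested. The dimmer Jund probe set (1440265_at) stood near background, at 268.5 to 388.5 on control arrays and 193.0 to 383.0 on Wt1 siRNA arrays, with a difference of -0.19 that did not pass (interval -0.75 to 0.38).

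Since both probe sets of a gene are read on the same array, a single scaling factor per array cancels in their log2 ratio. A change that depends on signal level, such as the stretch at the bright end described above, does not cancel. With quantile normalization the brighter and dimmer Jund probe sets differed between groups by 0.56 and -0.08, against 0.66 and -0.19 as deposited. For Jun these values were -0.02 and -0.36, against 0.01 and -0.37. The ratios below are from the deposited signals. For Jun the ratio of the brighter to the dimmer probe set was 1.22, 1.03, 0.75 and 0.87 on control arrays and 1.29, 1.42, 1.33 and 1.38 on Wt1 siRNA arrays. The Wt1 siRNA arrays were all higher, by 0.38 in the mean. For Jund the ratio was 5.08 to 5.40 on control arrays and 5.65 to 6.71 on Wt1 siRNA arrays, again without overlap. The dimmer Jund probe set was near background and below it on Wt1 siRNA array 3, at 193.0, so the size of that difference is not well measured. Both gave an exact two-sided permutation p of 0.0286, the smallest possible, and 0.0714 after Benjamini-Hochberg adjustment over the 5 genes with 2 probe sets. A gene at the smallest possible p passes this adjustment only if most of the 5 genes are also at it. Neither passed, but no conclusion can be drawn from that. The ratios of Fosl1 and Fosl2 overlapped between groups (exact permutation p = 0.343 and 0.629). Egr2 was counted among the 5, but both of its probe sets were at or below background, so its ratio cannot be read.

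**Figure D3:**
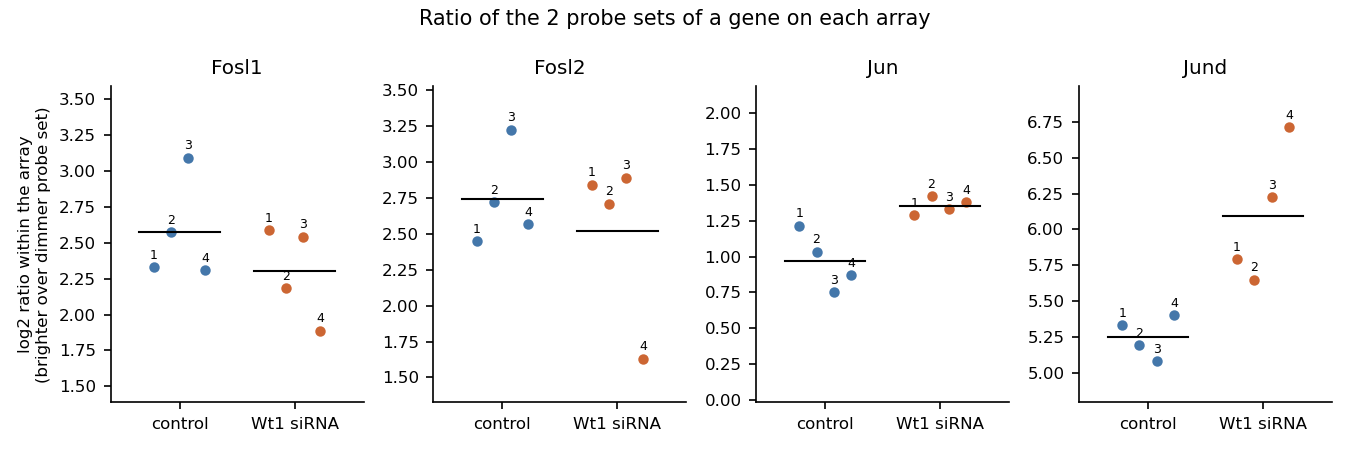
Log2 ratio of the brighter to the dimmer probe set of Fosl1, Fosl2, Jun and Jund on each array, numbered by replicate, with group means as lines and axes of equal length but different position. The Wt1 siRNA arrays lie above all control arrays for Jun and for Jund and overlap with them for Fosl1 and Fosl2.

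The promoters below are shown because Wt1 encodes a DNA-binding protein and because members of the family differed. Junb rose, Fosl2 and Fosb did not pass, and Jun was lower on its dimmer probe set only. RefSeq windows on GRCm38.p6 were found for 8 of the 10 genes, and the 250 bases before the annotated start were searched on both strands for TGANTCA (the TRE), TGACNTCA (which includes the CRE), GCGNGGGCG (the element shared by EGR1 and WT1), CCAAT and the CArG box bound by SRF. No window was found for Egr1 or for Fosl1, which also rose. Overlaps between motifs were allowed. Capitals mark the matches, and all 4 windows are written 5′ to 3′ along the gene. Junb is at chr8:84978749-84978998 (minus strand), Jun at chr4:95052223-95052472 (minus strand), Fosl2 at chr5:32136222-32136471 (plus strand) and Fosb at chr7:19310046-19310295 (minus strand).
Junb: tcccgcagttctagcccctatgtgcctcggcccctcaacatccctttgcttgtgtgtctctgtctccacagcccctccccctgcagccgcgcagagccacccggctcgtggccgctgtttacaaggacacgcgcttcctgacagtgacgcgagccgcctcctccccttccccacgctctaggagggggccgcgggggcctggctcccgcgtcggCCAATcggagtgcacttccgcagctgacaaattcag
Jun: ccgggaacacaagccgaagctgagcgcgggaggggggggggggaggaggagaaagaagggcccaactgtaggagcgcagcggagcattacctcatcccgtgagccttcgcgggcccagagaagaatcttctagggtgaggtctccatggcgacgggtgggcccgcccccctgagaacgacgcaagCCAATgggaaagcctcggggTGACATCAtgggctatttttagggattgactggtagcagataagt
Fosl2: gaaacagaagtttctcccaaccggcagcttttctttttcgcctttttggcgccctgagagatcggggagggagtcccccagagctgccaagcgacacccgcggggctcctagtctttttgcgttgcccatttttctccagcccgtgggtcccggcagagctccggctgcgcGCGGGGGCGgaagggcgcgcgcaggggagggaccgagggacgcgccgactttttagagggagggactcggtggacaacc
Fosb: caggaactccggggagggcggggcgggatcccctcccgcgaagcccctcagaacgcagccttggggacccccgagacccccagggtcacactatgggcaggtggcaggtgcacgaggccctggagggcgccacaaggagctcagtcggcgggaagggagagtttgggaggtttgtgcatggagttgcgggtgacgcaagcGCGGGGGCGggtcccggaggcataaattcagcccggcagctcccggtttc

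The Junb window held a CCAAT match 36 to 32 bases before the start and no match to the other motifs searched. Jun held CCAAT and, 45 to 38 bases before the start, TGACATCA, which has the form of the site through which Jun is known to act on its own promoter. Fosl2 and Fosb each held GCGGGGGCG, 79 to 71 and 50 to 42 bases before the start. Whether any of these matches bears on the differences after Wt1 siRNA was not tested. Windows of the same length before 32851 annotated starts held GCGNGGGCG in 4.70%, TGACNTCA in 7.49%, TGANTCA in 6.75%, CCAAT in 33.9% and a CArG box in 1.47% of cases. These shares are not matched for base content. The Fosb, Fosl2, Junb and Jun windows held 68.8%, 64.4%, 66.4% and 61.2% G and C, against a median of 52.4% over all windows. GCGNGGGCG consists almost wholly of G and C. The windows of Fos, Jund and Atf3 held no match to these motifs, where the annotated start used for Jund may not be its main one. A CArG box was in 4 of the 5 Egr2 windows, but several of those windows overlap and share the same match. A match describes the letters only.

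Atf3, a stress-induced factor that represses as a homodimer, read 1541.6, 1232.2, 1737.3 and 1313.7 on control arrays and 923.2, 1128.3, 1444.9 and 1483.3 on Wt1 siRNA arrays. Wt1 siRNA arrays 1 and 2 were below all controls while arrays 3 and 4 were among them. The log2 difference of -0.24 did not pass (limma adjusted p = 0.345), with an interval of 65.4% to 109.7% of control. It was -0.15 without control siRNA array 3 and -0.33 without Wt1 siRNA array 4, and neither passed.

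Egr1, a growth factor-induced zinc finger activator, read 8432.4, 11023.5, 13695.9 and 9145.1 on control arrays and 13489.0, 9014.0, 11834.3 and 11838.7 on Wt1 siRNA arrays. No Wt1 siRNA array lay outside the range of the controls. The log2 difference was 0.14 with a 95% interval of -0.20 to 0.47 (limma adjusted p = 0.566). Without control siRNA array 3 it was 0.27 (adjusted p = 0.155), and without both arrays of low weight 0.25. Egr2, a related factor, was at or below background on all 8 arrays. Its brighter probe set read 82.5 to 225.3 on control arrays and 149.5 to 209.8 on Wt1 siRNA arrays, and its other one 1.9 to 24.8 and 5.1 to 77.3. Both were left out by the filter on dim probe sets, and without that filter neither passed (limma adjusted p = 0.570 and 0.412).

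The spread within groups differed between the genes. The SD within groups on the log2 scale was 0.10 for the dimmer Jun probe set, the lowest of the 13, and 0.47 for the dimmer Fosl1 probe set, the highest, with a median of 0.28 against 0.19 over all tested probe sets. Over the 8 arrays, which include the group difference, the brighter Fosl1 probe set correlated with Junb at r = 0.87 and with its own second probe set at r = 0.93. The genes whose log2 signal followed Junb most closely over these 8 arrays were Lipa, encoding lysosomal acid lipase, Cep85 and Faap20 (Pearson r = 0.9965, 0.9922 and 0.9862). For Fosl1 they were Nradd, Pgm1, encoding phosphoglucomutase, and Fam43a (r = 0.99 each). All 6 rose, from 1.21-fold for Fam43a to 1.71-fold for Cep85. With median centring Pgm1 (adjusted p = 0.0514) and Fam43a (0.0537) missed the threshold, and Fam43a also did so without Wt1 siRNA array 1 (0.0634), 2 (0.0615) or 3 (0.0580). These 6 were picked for their likeness, so the values are a description.

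The pathway around these factors was followed through 9 lists of genes, each gene by its brightest probe set. Of 104 tested genes, 25 rose, 16 fell and 63 did not pass, against 27.8% of all genes measured in this way (13.2% higher and 14.6% lower). With median centring 8 of the 104 fell and 25 rose.

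Among other proteins that pair with Fos or Jun, 2 of 9 tested genes rose, 1 fell and 6 did not pass, with a median log2 difference of 0.14. Maf, a large Maf protein, was 2792 ± 194 on control and 1397 ± 216 on Wt1 siRNA arrays (SD, n = 4 each) and fell to 49.7% of control, while its dimmer probe sets, at -0.57 and -0.50, did not pass. The small Maf genes Maff and Mafg rose 1.62-fold and 1.39-fold, the latter on its brighter probe set only, since the other was at 0.09. Of 2 tested partners of the Egr proteins, the corepressor gene Nab2 was lower at 80.7% of control (log2 -0.31 ± 0.09) and Nab1 was at 0.05. The Nab2 call was lost without control siRNA array 1 (adjusted p = 0.0699) or 4 (0.0527), without Wt1 siRNA array 2 (0.0600) or 3 (0.0679), with median centring (0.331) and without the intensity trend (0.0515).

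A list of 24 further tested genes of the immediate early class moved both ways, 6 up and 5 down, with 13 not passing (median -0.04, and 0.07 with median centring). Sgk1, a kinase gene, fell to 48.2% of control and Pim1, also a kinase gene, to 49.3%, with a dimmer Pim1 probe set at -0.62 that did not pass. Rhob, a small GTPase gene, rose 1.80-fold (log2 0.85 ± 0.12). Of 16 genes of the Ras and MAP kinase cascades, 3 rose, 2 fell and 11 did not pass (median 0.10). Rps6ka3, which encodes the ERK-activated kinase RSK2, fell to 42.8% of control, from 5685 ± 550 to 2437 ± 268 (SD, n = 4 each), and its other probe sets, at -0.40 and -1.13, did not pass. Map2k4, a kinase upstream of JNK, fell to 67.5% on its brighter probe set, the other being at -0.29 without passing, and Rps6ka5, which encodes MSK1, rose 1.39-fold. Median centring ended the Map2k4 call (limma, adjusted p = 0.0581). The Rps6ka5 call was lost without control siRNA array 2 (0.0711) or 4 (0.0628) or Wt1 siRNA array 1 (0.0638), 2 (0.0795) or 3 (0.0799), and its other probe set was at 0.14. Of 11 dual specificity phosphatase genes, which switch MAP kinases off, 3 rose, 2 fell and 6 did not pass (median 0.06). Dusp7 rose 1.44-fold and Dusp14 fell to 69.7%. Dusp9 passed as higher, at 161.0, 126.0, 261.1 and 273.6 on control arrays and 415.2 to 465.2 on Wt1 siRNA arrays. Since 2 of those control arrays were below background, its fold is not given.

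**Figure D4:**
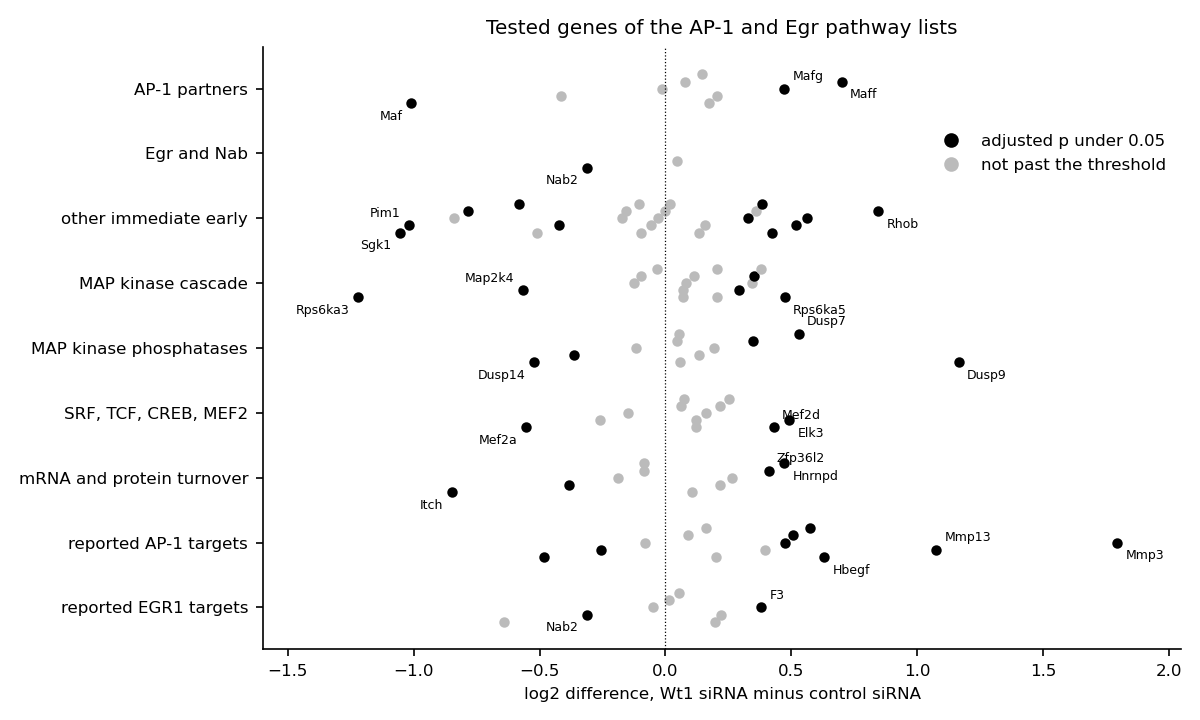
Log2 difference (Wt1 siRNA minus control siRNA) of each tested gene in 9 lists around AP-1 and Egr factors, 1 point per gene by its brightest probe set, with a small vertical offset for legibility. Black points passed an adjusted p under 0.05, and up to 3 of them per list are named: Mmp3 lies farthest to the right at 1.79 and Rps6ka3 farthest to the left at -1.22.

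Of 12 factors known to act at the promoters of such genes, 2 were higher, 1 was lower and 9 missed the threshold (median 0.12), and Srf itself was at 0.06. Elk3, a ternary complex partner of SRF, rose 1.41-fold, with its other 2 tested probe sets also higher. Mef2a fell to 68.1% of control and Mef2d rose 1.35-fold, although another Mef2d probe set was at -0.0010 and one more at 0.96. Of 10 genes acting on AU-rich mRNAs or on Jun protein turnover, 2 rose, 2 fell and 6 did not pass (median 0.01). Itch, a ubiquitin ligase gene whose product targets Jun proteins, fell to 55.5% of control. Hnrnpd, encoding an AU-rich element binding protein, rose 1.39-fold on its brightest probe set and was at -0.77 on another that also passed (limma adjusted p = 0.00459). Zfp36l2, encoding an mRNA decay factor, rose 1.33-fold on its brighter probe set and was at 0.09 on the other.

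Of 20 genes listed as reported AP-1 targets 13 were tested, and 6 of these were higher and 2 lower, with 5 not passing and a median of 0.40. Over all genes measured by their brightest probe set, 13.2% were higher and 14.6% lower, with a median of -0.004. The list was chosen with earlier results of these data known. With median centring the 6 that passed were all higher. Mmp3, the stromelysin gene, was 767 ± 21.9 on control arrays and 2670 ± 293 on Wt1 siRNA arrays (SD, n = 4 each), a rise of 3.47-fold. Mmp13, a collagenase gene, passed as higher, at 110.1, 343.5, 291.3 and 237.5 on control arrays and 450.3 to 519.5 on Wt1 siRNA arrays. Its control signals lay around the background, 1 of them below it, so its fold is not given. Its call did not hold once dim probe sets were kept (0.0659, adjusted p), nor without control siRNA array 4 (0.0618) or Wt1 siRNA array 1 (0.0620), 2 (0.0794), 3 (0.0670) or 4 (0.0512). Hbegf, an EGF receptor ligand gene, rose 1.55-fold on its brighter probe set, and the other was at -0.06. Of 8 genes reported as EGR1 targets, F3, which encodes tissue factor, rose 1.30-fold, Nab2 was lower and 6 did not pass (median 0.03). The F3 call was lost without control siRNA array 2 (adjusted p = 0.0574) or Wt1 siRNA array 2 (0.0676).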

How the data were processed

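Total RNA of 8 samples was hybridised to Affymetrix Mouse 430_2 arrays. The submitters' processing notes name MAS5, and the deposited values are linear intensities (signals), 1 for each probe set and array. The mean after trimming 2% of probe sets at each end was 1500 on every array. Symbols came from the platform annotation, updated through Entrez IDs (34945 probe sets with 1 symbol, 932 with several, 9160 unnamed here). Signals were log2 transformed without further normalization. The brighter 0.5 share of probe sets by mean log2 signal was tested (mean signal above 291) with limma 3.58.1 in R 4.3.3 (lmFit, eBayes with intensity trend), two-sided, with Benjamini-Hochberg adjustment over 22518 probe sets and a threshold of 0.05. Differences are Wt1 siRNA minus control siRNA, intervals are those of the fit, and the procedure was tested on simulated data. With 200 of 22518 simulated probe sets changed, it recovered 31% of changes of 0.5 log2 units and 75% of changes of 1 log2 unit. Of its 109 calls 3 were false. Changes of such size can therefore be missed. The number of arrays limits the precision. Members, lists and the naming rule (every member, and up to 3 genes per list past the threshold by size) were chosen with earlier results of these data known. Of 134 listed genes 118 had a named probe set. The alternatives are given with the closing section. Figures used matplotlib 3.10.9.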

Additional observations from a re-analysis of the deposited data

Results flagged for a closer look

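In a group of 4 arrays, a highest or lowest array was marked when its gap to the nearest other array, divided by the range of the group on the log2 scale, exceeded 0.829. Chance marks about 5% of groups, and 11 of 126 groups examined were marked. Junb was marked for the low Wt1 siRNA array 3 (0.978), Fosl1 1417487_at for the low Wt1 siRNA array 4 (0.872) and the dimly measured Egr2 1427683_at for the high Wt1 siRNA array 2 (0.844). Among list genes, Wt1 siRNA array 4 was low for Sgk1 (0.876) and high for Zfp36l2 (0.836) and Hmga2 (0.918). On control arrays, array 3 was high for Pim1 (0.879), array 1 for Rhob (0.958) and array 2 for Dusp7 (0.851) and Ccl2 (0.839). Cep85, picked because it follows Junb, was marked for the low Wt1 siRNA array 3 (0.873). Jund 1449117_at was not marked, although Wt1 siRNA array 4 was the highest.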

How the results depend on the processing

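Junb and both Fosl1 probe sets passed in every alternative in which they were tested, and Junb ranged from 1.08 to 1.29. Of 265 comparisons of a member with an alternative, 241 kept direction and side of the threshold. With median centring 0 member probe sets (the dimmer Jun probe set was at -0.26), 8 list genes and 1369 of all tested probe sets were lower. With 1 probe set per gene 0 members were lower, since the dimmer Jun probe set was not tested, and 1687 of 9096 genes. Differences near 0 changed sign without passing. Fosb was at -0.12 with array weights and -0.079 without both arrays of low weight (chosen after seeing the data), and ranged from -0.092 to 0.13 leaving out 1 array. Fosl2 1422931_at was at -0.075 with array weights and -0.17 without both arrays, and ranged from -0.092 to 0.23 leaving out 1. Fosl2 1437247_at was at 0.022 with median centring and 0.067 without both. Jun 1417409_at was at -0.016 with quantile normalization and ranged from -0.040 to 0.053 leaving out 1 array, and Jund 1440265_at from -0.32 to 0.012. Same-numbered arrays did not deviate together (correlations of -0.062 to 0.082, and 2 of 8 arrays correlated best with their own number). With the replicate number as a block, 4 member probe sets were higher and 1 lower, Jund 1449117_at passing with an adjusted p of 0.0499, and Wt1 was at -2.28, while Fam43a lost its call (adjusted p = 0.0508). The other alternatives were an added 16 or 64, no filter or a share of 0.25, no trend, robust eBayes and no shared-sequence probe sets, where Wt1 had none left.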

Other observations

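Beyond the genes named by the rule, 18 list genes passed the threshold, and the 9 that passed under every alternative in which they were tested are given here; they were chosen after their values were seen. Among immediate early genes, 3 Krüppel-like factor genes were higher, Klf2 at 1.48-fold, Klf10 at 1.34-fold and Klf4 at 1.30-fold, and the orphan nuclear receptor gene Nr4a1 was higher by 0.33 log2 units. Relatives of these genes in the list did not share the rise. Klf6 was at -0.06 without passing. Nr4a2, outside the 9, was lower at 66.7% of control (limma adjusted p = 0.0425) and passed in 7 of 20 alternatives. Csrnp1, a nuclear protein gene of the same list, was at 58.0% of control (log2 -0.79 ± 0.11, SE; limma adjusted p = 0.000387). Dusp1, whose product inactivates JNK and p38, was higher at 1.27-fold. Among reported AP-1 targets, the urokinase receptor gene Plaur was higher at 1.42-fold, the hyaluronan receptor gene Cd44 at 1.39-fold and the chromatin protein gene Hmga2 at 1.49-fold, with 2 other Hmga2 probe sets at 0.50 and 0.74 on the log2 scale that also passed and a dim one at 0.0068.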
